A study of Homo sapiens with 18 samples.

Results

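Introns that GENCODE places only in transcripts marked for nonsense-mediated decay (NMD) were followed in SHEP.tet21n neuroblastoma cells with and without MYCN and SNRPD3. An intron belonged to this class when a protein-coding gene had it in at least 1 transcript of the type nonsense_mediated_decay and in no other transcript type. Of 233650 introns measured, 127076 matched an annotated intron and 8311 were NMD-only, which was 3.56% of all introns and 6.54% of the annotated ones. The 8311 introns lay in 3849 genes and 5714 clusters, with at most 16 in a gene.

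In NMD, a ribosome that stops at a codon upstream of an exon junction marks the mRNA for degradation. Such early stops arise when an exon with a stop codon is spliced in (a poison exon), when skipping an exon shifts the reading frame, or when a different splice site is taken. Many genes for splicing factors hold poison exons, through which their proteins are known to limit their own amounts. As NMD transcripts are degraded, their level in total RNA reflects both splicing and decay, and these could not be told apart here. SNRPD3 encodes the Sm protein D3, part of the core ring of the spliceosomal small nuclear ribonucleoproteins. MYCN is the MYC-family oncogene amplified in high-risk neuroblastoma.

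SHEP.tet21n is a neuroblastoma cell line in which doxycycline (Dox) shuts off a MYCN transgene. All MYCN- cells were given 2 µg/mL Dox and all MYCN+ cells DMSO, so effects of Dox and of MYCN repression cannot be told apart. Each MYCN status was combined with a control siRNA (SNRPD3+) or with either of 2 SNRPD3 siRNAs (SNRPD3- #1 and #2), with 3 libraries in each of the 6 groups. MYCN-/SNRPD3+ is called wildtype, although it is the same engineered line under Dox. No annotated intron of either targeted gene entered the measurements used here, so neither the repression nor the knockdown could be checked in them. The measurement was PSI, the fraction of a cluster's intron-spanning reads that removed a given intron. The number of reads behind a PSI is unknown, and errors below come only from the spread between libraries.

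NMD-only introns were minor products. Their median PSI, averaged over the 18 libraries, was 1.26% (quartiles 0.511% and 3.65%), against 39.5% for introns of coding transcripts. The median was 1.78% for the 8983 introns found only in other non-coding transcripts of coding genes. Of the 8311 introns, 944 exceeded 10% and 181 exceeded 50%. Single-intron tests took the 4668 introns in 2617 genes whose mean PSI lay from 1% to 99%; 3642 fell under 1% and 1, in SULT4A1, over 99%. The nearest introns below 1% were those of TTC21B and QPCTL (both 1.000%), and the nearest above it those of FAM13C and PLEKHA8 (both 1.001%). At the upper limit, MARS1 (98.7%) and GLYR1 (98.8%) were tested and SULT4A1 (99.01%) was not.

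By structure, 2643 of the introns flanked a poison exon. This means here an exon between 2 NMD-only introns of a transcript, with a skipping intron in the same cluster. Such an exon could hold a stop codon or not, and its absence from coding transcripts was not checked. Of the other introns, 1677 skipped 1 exon of other transcripts, and 1629 used an acceptor and 1506 a donor found in no other transcript type. A further 456 joined 2 known sites in another way, and 400 had both sites new. Among all introns that skipped 1 exon, including some beside poison exons, the length of the skipped exon was not a multiple of 3 in 1553 (90.6%) and was in 162. Such a length can shift the frame only where the skip lies within it. Of the 1677 exon-skipping introns, 1357 lay within the annotated reading frame and 284 after its stop. The 400 introns with both sites new stood apart in level, with a median PSI of 6.94% and 86 introns over 50%. Of these 400, 309 lay after the annotated stop codon. In the whole class, 4738 introns lay within the annotated reading frame, 3377 after its stop and 196 before its start.

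The poison exons could be read directly from hg38. There were 1361 with both flanking introns and the skipping intron measured, in 1094 genes, with a median length of 116 bases. A stop codon of the NMD transcript lay inside 972 of them (71.4%), being TGA in 547, TAA in 222 and TAG in 203. The stop came early, at a median of base 31 of the exon. The following exons, whose inclusion is described further below, are shown on the strand of the gene from their first base to the stop codon of the NMD transcript, which is in capitals.

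LSM14A (chr19:34195219-34195320, plus strand): agtcgttggagtacagtggcgTGA

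DCLK2 (chr4:150253474-150253556, plus strand): tttgatttgacagttTGA

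KDM4A (chr1:43653663-43653799, plus strand): tctcatccagcactcTAG

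RAB5IF (chr20:36607890-36608000, plus strand): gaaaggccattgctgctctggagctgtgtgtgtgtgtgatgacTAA

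IDS (chrX:149502075-149502177, minus strand): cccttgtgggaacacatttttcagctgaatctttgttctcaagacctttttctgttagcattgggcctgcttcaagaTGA

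Each stop shown is the annotated end of the reading frame of an NMD transcript. In the LSM14A exon the stop ended at base 24 of 102, and in the IDS exon at base 80 of 103.

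The splice sites of NMD-only introns scored close to those of coding introns, and lowest at the new site of new-donor and new-acceptor introns. Sites were scored against the base frequencies of introns found in coding but not NMD transcripts, as a log2 likelihood ratio over 3 exon and 6 intron bases at the donor and over 20 intron and 3 exon bases at the acceptor. The median donor score was 7.96 for NMD-only introns and 8.145 for all introns of coding transcripts, and the median acceptor scores were 9.35 and 9.62. New donors had a median of 6.33, and new acceptors a median of 7.002. Exon-skipping introns, which join annotated exons, scored 8.27 and 10.0. Introns beside a poison exon scored 8.02 and 9.78, and their new and known sites were not scored apart. The rarer GC donor occurred in 3.98% of introns with a new donor (60 of 1506) and in 0.937% of coding introns. The donor that ends the LSM14A poison exon was of this kind. These are descriptions of sequence, without a test.

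The donor sequences of 3 introns whose usage is described below show how far the new sites ranged. They are given with 3 exon and 6 intron bases and the first 2 intron bases in capitals.

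H2AC6 (chr6:26124750-26138053, plus strand): aagGTaagt

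TMEM161B (chr5:88203076-88205753, minus strand): aagGTataa

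LSM14A (chr19:34195321-34196633, plus strand): cagGCatgc

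The scores of these donors were 12.7 for H2AC6, 5.46 for TMEM161B and 2.02 for LSM14A.

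Summed usage of NMD-only introns differed little between the groups. Usage was taken as the summed PSI of the NMD-only introns of a cluster, averaged over the 5714 clusters. It was 7.40%, 7.53% and 7.41% in the 3 wildtype libraries, and 7.90%, 7.70% and 7.49% in MYCN+/SNRPD3+. With MYCN repressed, the values were 7.46%, 7.21% and 7.76% with siRNA #1 and 7.45%, 7.36% and 7.59% with siRNA #2. With MYCN expressed they were 7.63%, 7.76% and 7.67% with siRNA #1 and 7.89%, 7.52% and 8.05% with siRNA #2. The groups overlapped, and the full range over the 18 libraries was under 1 percentage point.

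SNRPD3 knockdown changed the sum by 0.0264 points with MYCN repressed and by 0.0520 points with MYCN expressed (exact permutation p = 0.81 and p = 0.726). MYCN alone gave a difference of 0.255 points (exact permutation p = 0.2, with 0.1 the smallest possible for 3 against 3 libraries), and between 0.153 and 0.359 points when each library was left out in turn. MYCN+/SNRPD3- exceeded wildtype by 0.307 points (exact permutation p = 0.0595). Over all siRNAs, a comparison added after the data were seen, the 9 MYCN+ libraries averaged 0.272 points more than the 9 MYCN- libraries (exact permutation p = 0.00725 within siRNA, adjusted p = 0.0508 over 7 comparisons). The adjusted value missed the threshold of 0.05.

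Usage of introns found only in other non-coding transcripts was 0.334 points higher with MYCN (exact permutation p = 0.0025, adjusted p = 0.0175). The log2 ratio of NMD-only to these introns differed by 0.00254 (exact permutation p = 0.846). Coding introns that were not the most used of their cluster differed by -0.478 points with MYCN, which did not pass (exact permutation p = 0.179, adjusted p = 0.626). The log2 ratio of NMD-only to these coding introns was 0.0701 higher with MYCN (exact permutation p = 0.019), and this did not pass after adjustment (adjusted p = 0.0833). Between 145 and 206 NMD-only introns per MYCN- library, and between 178 and 261 per MYCN+ library, had a PSI repeated exactly in another library. How a PSI was set for a library with no reads in a cluster is not given in the sources used here, and a repeated value may mark such a library. With only the clusters free of repeats, the MYCN difference over all siRNAs kept its direction and an unadjusted exact permutation p under 0.05. In these clusters MYCN+/SNRPD3- exceeded wildtype by 0.271 points (exact permutation p = 0.0238).

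Under the nearly constant sum, the 2 largest kinds of NMD-only intron diverged with knockdown. Introns flanking poison exons were used less, and the difference between exon-skipping and poison-exon usage grew. These kinds were compared after the data were seen, and p-values were adjusted over the 42 tests of 6 kinds and 7 comparisons. Usage of introns beside poison exons was 8.41%, 8.66% and 8.74% in wildtype, and lay between 8.07% and 8.28% in the 6 knockdown libraries with MYCN repressed. It was 9.22%, 8.80% and 8.52% in MYCN+/SNRPD3+, and lay between 7.34% and 8.47% in the 6 knockdown libraries with MYCN expressed. Knockdown and control libraries did not overlap in either status. Over both statuses, usage fell by 0.557 points with knockdown (exact permutation p = 0.000142, the smallest possible, adjusted p = 0.00595). Within each status the difference was -0.411 points with MYCN repressed and -0.702 points with MYCN expressed (exact permutation p = 0.0119 and p = 0.0357, adjusted p = 0.0833 and p = 0.167).

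One library stood apart. The lowest value, 7.34%, came from MYCN+/SNRPD3- #1 replicate 3, and without it the fall over both statuses was 0.476 points (exact permutation p = 0.000213).

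Usage of exon-skipping introns was 3.47%, 3.39% and 3.29% in wildtype, and 3.45%, 3.67% and 3.599% in MYCN+/SNRPD3+. With knockdown it ranged from 3.45% to 4.07% with MYCN repressed and from 3.73% to 4.89% with MYCN expressed. Over both statuses it was 0.468 points higher with knockdown (exact permutation p = 0.0085), which did not pass after adjustment (adjusted p = 0.0833). Replicate 3 was the highest library of each knockdown group, at 4.07% and 3.82% for siRNA #1 and #2 with MYCN repressed and at 4.89% and 4.68% with MYCN expressed. With the libraries numbered 1 and 2 alone, the difference over both statuses was 0.241 points (exact permutation p = 0.0133), while that of poison-exon introns was -0.538 points (exact permutation p = 0.00444). The difference of both usages within a library, exon skipping minus poison exon, rose by 1.02 points with knockdown (exact permutation p = 0.000142, adjusted p = 0.000992 over 7 comparisons). The interaction with MYCN was 0.663 points (exact permutation p = 0.395). With MYCN, exon-skipping usage was 0.440 points higher over all siRNAs (exact permutation p = 0.004, adjusted p = 0.0833) and poison-exon usage 0.0496 points higher (exact permutation p = 0.735).

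**Figure D1:**
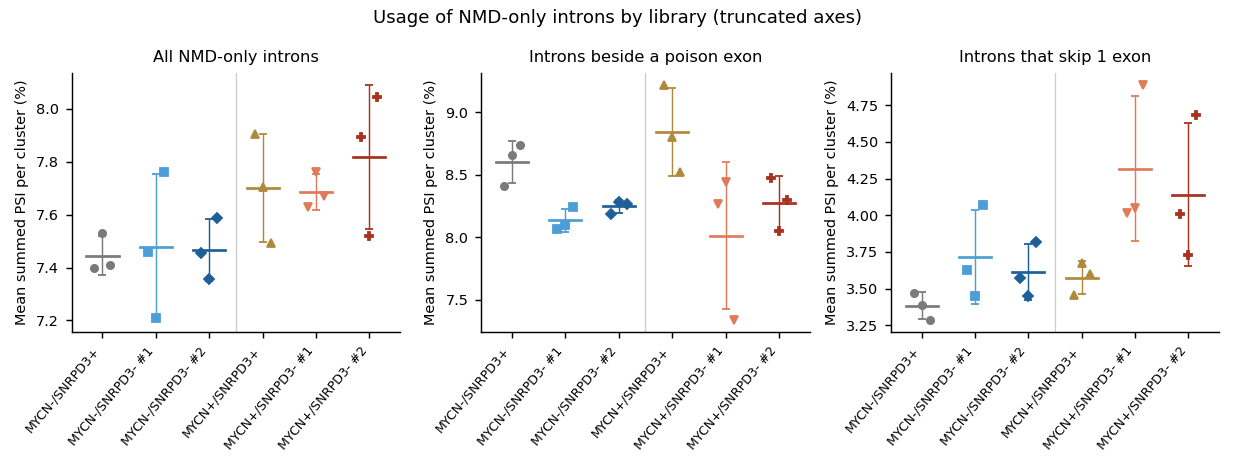
Mean summed PSI per cluster (y axes, %, truncated) of all NMD-only introns, of those beside a poison exon and of those skipping 1 exon, with each library as a point, the group mean as a line and its SD as bars. The poison-exon introns of all 12 knockdown libraries lie below the control libraries of the same MYCN status, and the sum over all kinds does not separate the groups.

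Inclusion of the poison exons showed the same difference. The inclusion share was the mean PSI of the 2 flanking introns over that mean plus the PSI of the skipping intron. Averaged over 1361 exons it was 13.6%, 13.7% and 14.3% in wildtype, and 13.05% to 13.65% in the knockdown libraries with MYCN repressed. It was 14.7%, 14.2% and 14.04% in MYCN+/SNRPD3+, and 12.04% to 13.7% with knockdown. The ranges overlapped with MYCN repressed and were separate with MYCN expressed. Over both statuses inclusion fell by 0.814 points (exact permutation p = 0.000567, adjusted p = 0.00397 over 7 comparisons). The difference was -0.566 points with MYCN repressed (exact permutation p = 0.0476, adjusted p = 0.111) and -1.06 points with MYCN expressed (exact permutation p = 0.0238, adjusted p = 0.0833). Without MYCN+/SNRPD3- #1 replicate 3, the library at 12.04%, it fell by 0.694 points over both statuses (exact permutation p = 0.000638). Of the 1361 exons, 882 (64.8%) had a lower mean with knockdown. For the 972 exons with the stop codon inside, inclusion fell by 0.830 points (exact permutation p = 0.000709, adjusted p = 0.00496). MYCN over all siRNAs gave a difference of 0.0944 points (exact permutation p = 0.694).

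Cassette exons of coding transcripts, 10158 in number, were also included less after knockdown. Their mean share was 64.2% to 64.8% in wildtype libraries, and over both statuses it fell by 1.54 points (exact permutation p = 0.000142, adjusted p = 0.000992). On the log2 odds scale, the fall of poison exons and of coding cassette exons differed by -0.00409 (exact permutation p = 0.831). Against the 3560 coding exons included under 50%, poison exons were 0.0573 log2 odds higher after knockdown (exact permutation p = 0.0315), which did not pass after adjustment (adjusted p = 0.0734). With MYCN the 2 classes differed. Coding cassette exons fell by 1.10 points with MYCN over all siRNAs (exact permutation p = 0.0015, adjusted p = 0.00525), and poison exons were 0.078 log2 odds higher relative to them (exact permutation p = 0.002, adjusted p = 0.014). Against only the coding exons included under 50%, this difference was 0.069 log2 odds (exact permutation p = 0.0125, adjusted p = 0.0734).

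Single introns were tested with limma on log2((PSI + 0.01)/(1 - PSI + 0.01)) over all 152722 introns with a mean PSI from 1% to 99%. In MYCN+/SNRPD3- against wildtype, 40 NMD-only introns in 39 genes passed an adjusted p of 0.05, 28 higher and 12 lower (0.857% of 4668). The share over all introns tested was 0.559%, with 0.35% higher and 0.209% lower. For MYCN+ against MYCN- over all siRNAs, 74 introns in 69 genes passed, 56 higher and 18 lower (1.59%, against 1.23% of all introns, 0.681% higher and 0.547% lower). Both comparisons share libraries, and 26 introns were called in both. The median absolute difference of the called introns was 3.10 and 2.66 percentage points. In 39 of the 40 calls, the 6 MYCN+/SNRPD3- libraries did not overlap the 3 wildtype libraries. The calls came from a fit that held these same libraries, so this separation is not further support for them.

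The other comparisons called 0 NMD-only introns. For MYCN alone, limma called 0.0543% of all introns, and 359 NMD-only introns (7.69%, against 6.19% of all introns) had an unadjusted p under 0.05. For knockdown with MYCN repressed, 0.0138% of all introns were called, and 275 NMD-only introns (5.89%, against 4.69%) had such a p. For knockdown with MYCN expressed, 0.0196% of all were called, and 480 (10.28%, against 7.06%) had it. For knockdown over both statuses, 0.0242% of all were called, and 555 (11.9%, against 7.8%) had it. For the interaction of knockdown and MYCN, 0.0177% of all were called, and 224 (4.80%, against 3.98%) had it. In MYCN+/SNRPD3- against wildtype the number was 753 (16.1%, against 11% of all introns), and for MYCN over all siRNAs 726 (15.55%, against 11.7%).

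The count of 40 depended on single libraries. It was 7, 8 and 3 without wildtype replicate 1, 2 or 3, and 22 without MYCN+/SNRPD3+ replicate 2. It was 17 without MYCN+/SNRPD3- #1 replicate 3, and 24 and 13 without MYCN+/SNRPD3- #2 replicate 1 or 3. With siRNA #1 alone 25 introns were called, and with siRNA #2 alone 3. The count of 74 ranged from 44 to 68, and moved by more than 1.5 times without MYCN-/SNRPD3+ replicate 2 (49), MYCN-/SNRPD3- #1 replicate 2 (44), MYCN-/SNRPD3- #2 replicate 2 (48), MYCN+/SNRPD3+ replicate 1 (47) or MYCN+/SNRPD3- #2 replicate 3 (49).

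Direction went with the kind of event. Among the 40 calls, 15 exon-skipping introns were higher and 1, in TRIM41, was lower, while 8 introns beside poison exons were lower and 0 higher. New donors gave 8 higher and 1 lower, new acceptors 2 higher, and other joins of known sites 3 higher and 2 lower. Among the 74 MYCN calls, exon-skipping introns were higher in 25 and lower in 1, and introns beside poison exons were higher in 7 and lower in 8. For knockdown over both statuses, 128 of 845 exon-skipping introns were higher at an unadjusted p under 0.05 and 10 lower, and 34 of 1558 poison-exon introns were higher and 133 lower. Over all introns, 4.15% were higher and 3.65% lower at that level, against 5.87% and 5.08% in MYCN+/SNRPD3- and 6.2% and 5.52% with MYCN over all siRNAs. The median change over all introns tested was -0.00533 log2 odds, against 0.19 for exon-skipping and -0.14 for poison-exon introns.

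**Figure D2:**
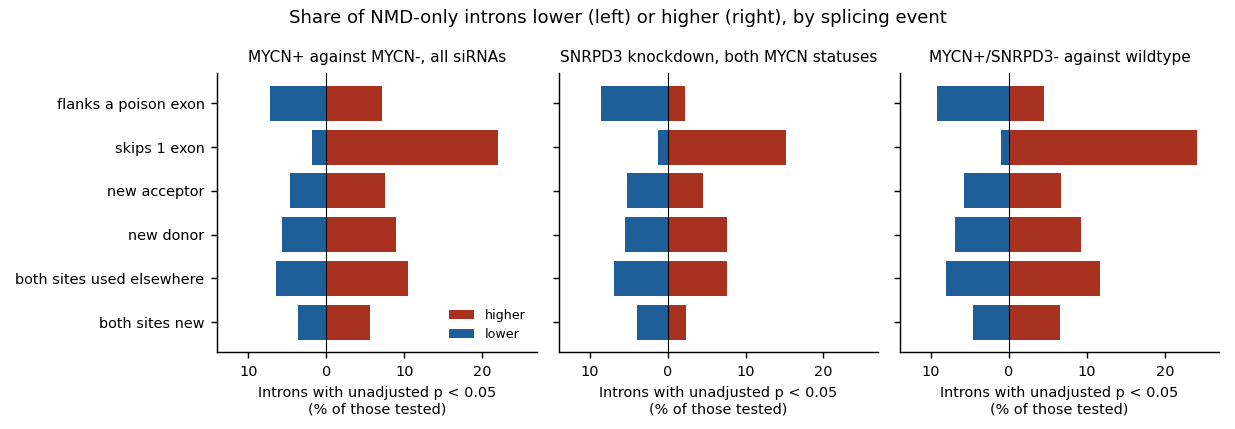
Percentage of tested NMD-only introns (x axes) that were lower (left) or higher (right) at an unadjusted p under 0.05 in 3 comparisons, by kind of splicing event. Exon-skipping introns lean to higher in all 3 (186, 128 and 204 of 845), and introns beside a poison exon lean to lower with knockdown (133 of 1558) and with MYCN and knockdown together (144 of 1558).

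In MYCN+/SNRPD3- cells, the smallest p belonged to exon-skipping introns of CRELD1 and HDAC3. The CRELD1 intron (chr3:9934918-9940849) made up 2.44%, 1.88% and 1.48% of its cluster in wildtype, and 5.57%, 5.40% and 4.84% with siRNA #1 and 5.34%, 7.21% and 6.94% with siRNA #2 in MYCN+ cells. Every MYCN+ library exceeded every MYCN- library, the rest of which ranged up to 3.43%. The change was 1.29 ± 0.15 log2 odds (SE, limma adjusted p = 0.00312), and it stayed under an adjusted p of 0.05 in 27 of 27 alternative settings. Other named calls were less stable. USP10 lost the threshold in 6 of 27 settings (adjusted p up to 0.143), NSUN4 in 7 of 27, LSM14A in 6 of 28, H2AC6 in 5 of 28, TRIM41 in 5 of 27, FKBP10 in 4 of 28, PLA2G12A and TMEM161B in 3 of 28 each and HDAC3 in 1 of 27. With siRNA #2 alone, limma adjusted p-values were 0.0583 for TRIM41, 0.0610 for USP10, 0.0613 for PLA2G12A, 0.0762 for FKBP10, 0.0797 for H2AC6, 0.184 for NSUN4 and 0.882 for LSM14A. CRELD1 encodes an epidermal growth factor domain protein of heart development.

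HDAC3 encodes the histone deacetylase of the nuclear receptor corepressor complexes. Its exon-skipping intron (chr5:141630126-141636547) was at 2.48%, 2.94% and 2.96% in wildtype and at 5.02% to 7.30% in the 6 MYCN+/SNRPD3- libraries. Control and knockdown libraries did not overlap in either MYCN status. The change from wildtype was 0.92 ± 0.12 log2 odds (SE, limma adjusted p = 0.00664).

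Exon-skipping introns of FKBP10, PLA2G12A, USP10 and NSUN4 also rose. FKBP10 encodes a collagen-folding isomerase of the endoplasmic reticulum. Its intron (chr17:41813280-41818088) was at 5.85%, 5.21% and 5.54% in wildtype, 9.44% to 15.3% in MYCN+/SNRPD3+ and 11.3% to 17.8% in MYCN+/SNRPD3-. No MYCN- library exceeded 8.34%, so for FKBP10 the groups separated by MYCN and not by siRNA. The intron of PLA2G12A, a secreted phospholipase, went from 2.46% ± 0.65 (SD, n = 3) in wildtype to 7.66% ± 1.8 and 7.08% ± 1.7 in MYCN+/SNRPD3- #1 and #2 (limma adjusted p = 0.0139). For the deubiquitinase gene USP10, the means were 1.02% ± 0.14 (SD, n = 3), 3.02% ± 0.74 and 2.90% ± 0.83 (limma adjusted p = 0.0147). For NSUN4, a mitochondrial RNA methyltransferase, siRNA #1 gave 6.88% ± 1.4 and siRNA #2 4.62% ± 0.21 from 2.62% ± 0.54 (SD, n = 3 each, limma adjusted p = 0.0225), and with siRNA #2 alone the adjusted p was 0.184.

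TRIM41, a ubiquitin ligase gene, went the other way. Its exon-skipping intron (chr5:181232890-181233635) was at 4.40%, 3.77% and 4.17% in wildtype and at 0.403% to 1.04% in MYCN+/SNRPD3- libraries. One MYCN-/SNRPD3- #2 library reached 4.79%, while the other MYCN- knockdown libraries were at 0.722% to 1.92%. The change was -1.70 ± 0.25 log2 odds (SE, limma adjusted p = 0.0127).

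Introns with a new donor rose in TMEM161B and H2AC6. The TMEM161B intron was at 2.18%, 1.75% and 3.24% in wildtype and at 5.64% to 10.7% in MYCN+/SNRPD3-, a change of 1.47 ± 0.22 log2 odds (SE, limma adjusted p = 0.0125). The intron of the histone H2A gene H2AC6, which begins after the stop codon, was already at 28.6% ± 2.4 in wildtype and reached 45.2% ± 4.1 and 44.2% ± 3.9 with siRNA #1 and #2 (SD, n = 3 each, limma adjusted p = 0.0208). Its wildtype libraries (25.8% to 30.3%) did not overlap the MYCN+/SNRPD3- libraries (41.4% to 49.5%).

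The 8 poison-exon introns that fell belonged to LSM14A, KDM4A, MEAK7, RAB5IF, FAM193B, IDS and, with both sides of 1 exon, LUC7L3. No annotated stop codon lay inside the LUC7L3 exon of 63 bases, and the intron that skips it was itself NMD-only. KDM4A, RAB5IF, IDS and LUC7L3 are outside the rule for named genes and were chosen after their values were seen. For LSM14A, a gene of cytoplasmic mRNP granules, the intron downstream of the exon was at 0.0731%, 0.225% and 0.165% in MYCN+/SNRPD3- #1 but at 8.21%, 17.5% and 10.7% with siRNA #2, and at 11.1% to 21.5% in wildtype. Its fall of 2.22 ± 0.36 log2 odds (SE, limma adjusted p = 0.0209) came from siRNA #1, as with siRNA #2 alone the change was -0.403 (limma adjusted p = 0.882). The inclusion share of the LSM14A exon was 25.5%, 38.0% and 41.5% in wildtype, 26.6%, 43.8% and 34.3% in MYCN+/SNRPD3+, and 5.55% to 31.0% and 0.0798% to 28.8% in the knockdown libraries of the 2 statuses. These ranges overlapped.

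The RAB5IF exon was an abundant poison exon. Its inclusion share was 61.8%, 49.7% and 63.3% in wildtype and 53.5%, 46.6% and 46.1% in MYCN+/SNRPD3+. Knockdown gave 39.8% to 50.5% with MYCN repressed and 26.2% to 41.6% with MYCN expressed, where the groups did not overlap. Its upstream intron fell by 0.71 ± 0.13 log2 odds in MYCN+/SNRPD3- against wildtype (SE, limma adjusted p = 0.0297).

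The poison exon of KDM4A, a histone demethylase gene, was included at 6.96%, 7.20% and 6.96% in wildtype and at 1.65% to 3.42% in MYCN+/SNRPD3-. The downstream intron fell by 1.30 ± 0.22 log2 odds (SE, limma adjusted p = 0.0263). In the lysosomal sulfatase gene IDS, inclusion was 8.82%, 10.8% and 7.34% in wildtype and 2.64% to 5.82% in MYCN+/SNRPD3-. In both genes the wildtype and MYCN+/SNRPD3- libraries were separate. MYCN+/SNRPD3+ overlapped MYCN+/SNRPD3- in both, at 2.51%, 4.78% and 3.98% for KDM4A and at 6.47%, 6.00% and 5.54% for IDS.

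MYCN status, over all siRNAs, separated the ANKRD13A intron and the upstream of both TMEM219 introns without overlap. For ANKRD13A, which encodes a ubiquitin-binding protein, a new donor before the start codon took 8.70% to 15.1% in the 9 MYCN- libraries (median 12.2%) and 15.6% to 26.6% in the 9 MYCN+ libraries (median 20.5%). The difference was 0.93 ± 0.12 log2 odds (SE, limma adjusted p = 0.00206). For NCSTN, a subunit gene of gamma-secretase, an intron before a poison exon was at 0.629% to 1.32% without and 1.30% to 2.64% with MYCN (limma adjusted p = 0.00208). The ranges met in 1 library of each status. For TMEM219, both introns around a poison exon rose, the upstream one from a median of 10.46% to 17.1% (0.91 ± 0.12 log2 odds, SE, limma adjusted p = 0.00259). The downstream one had 6.32% to 9.38% without MYCN and 8.95% to 17.9% with it, and these ranges overlapped. No annotated stop codon lay inside this exon of 99 bases.

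Exon-skipping introns of BTBD3 and ADAMTSL1 rose with MYCN as well, and a poison-exon intron of MEAK7 fell. BTBD3 had 0.857% to 2.58% without MYCN and 2.22% to 8.62% with it (limma adjusted p = 0.00296). The MEAK7 intron (chr16:84497648-84497933) was at 0.832% to 2.70% in MYCN- libraries and under 0.06% in 8 of 9 MYCN+ libraries, with 1.55% in MYCN+/SNRPD3- #1 replicate 3 (-1.35 ± 0.18 log2 odds, SE, limma adjusted p = 0.00315). The inclusion share of the exon downstream of this intron was 0.697% to 1.40% in MYCN- libraries. With MYCN it was 1.31% and 0.801% in SNRPD3- #1 replicates 2 and 3, and 0.678% in SNRPD3- #2 replicate 2. In the other MYCN+ libraries the share was at most 0.0222%. MEAK7 encodes an activator of TOR signalling. ADAMTSL1 was at 0.0125% to 1.40% without MYCN and 1.02% to 5.37% with it (limma adjusted p = 0.00414).

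MXI1, KAT2A and SMC1A are outside the naming rule and were chosen after their values were seen. MXI1 encodes an antagonist of MYC that binds MAX. Its NMD-only intron (chr10:110227387-110228188) was at 5.88% to 15.8% in 7 of 9 MYCN- libraries, at 0.128% and 0.179% in the other 2, and at 0.0628% to 0.0876% in 8 of 9 MYCN+ libraries, with 4.28% in MYCN+/SNRPD3+ replicate 2. The difference was -2.34 ± 0.52 log2 odds (SE, limma adjusted p = 0.0476). The MXI1, MEAK7 and ZNF433 introns had 18 different values each, but reads behind the values near 0 are unknown. KAT2A, a histone acetyltransferase gene, had an NMD-only intron with a new donor at 35.3% to 50.6% without MYCN and 24.1% to 33.7% with it, with no overlap (-0.80 ± 0.15 log2 odds, SE, limma adjusted p = 0.02). SMC1A, a cohesin subunit gene, had 1.99% to 5.32% against 5.04% to 7.62%, which overlapped in few libraries (0.78 ± 0.15 log2 odds, SE, limma adjusted p = 0.0243).

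Knockdown within both MYCN statuses was also read without the fit, as introns in which control and knockdown libraries did not overlap in either status. Of the NMD-only introns tested with 18 different values (4087), 9 were higher (0.220%, against 0.157% of all introns) and 7 lower (0.171%, against 0.0823%). The 9 were 6 exon-skipping introns and 3 new donors, and the 7 included 5 introns beside poison exons. None of these passed limma's adjusted p for knockdown over both statuses.

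The exon-skipping intron of TEX261 was at 5.26%, 7.16% and 5.64% in wildtype and 8.20% to 15.2% after knockdown, and at 10.97%, 10.51% and 12.3% in MYCN+/SNRPD3+ and 13.1% to 23.6% after knockdown (0.64 ± 0.18 log2 odds, SE, limma adjusted p = 0.322). For CPSF7, a subunit of the cleavage factor that positions mRNA 3′ ends, it was at 1.09% to 1.47% and 1.60% to 4.32% with MYCN repressed. With MYCN expressed it was at 1.71% to 1.83% and 3.45% to 7.52% (0.92 ± 0.19 log2 odds, SE, limma adjusted p = 0.19). ZC3H7A, a zinc finger gene, had 0.975% to 2.15% against 2.22% to 5.73%, and 1.12% to 1.59% against 1.64% to 7.21%.

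Among the introns lower with knockdown, the poison exon of the doublecortin-like kinase gene DCLK2 was mostly included. Its inclusion share was 69.4%, 76.6% and 74.0% in wildtype and 63.2% to 68.8% after knockdown, and 72.7%, 84.4% and 72.7% in MYCN+/SNRPD3+ and 47.6% to 64.8% after knockdown. The intron downstream of it changed by -0.42 ± 0.10 log2 odds (SE, limma adjusted p = 0.225). The poison exon of CCNB1IP1, which encodes a ubiquitin ligase of meiosis, was at 5.22% to 7.14% in wildtype and 2.08% to 3.85% after knockdown, and at 4.25% to 4.96% and 1.47% to 3.87% with MYCN expressed. FAM193B was the closest to the threshold. Its intron was at 2.39% to 4.58% and 0.704% to 1.80% with MYCN repressed, and at 2.10% to 4.20% and 0.523% to 1.89% with MYCN expressed (-0.94 ± 0.15 log2 odds, SE, limma adjusted p = 0.0638). An intron of the zinc finger gene ZNF433, of which several libraries were near 0, had 4.76% to 6.43% against 0.0437% to 3.06%, and 5.56% to 6.47% against 0.0438% to 5.10%.

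In the lists of SR, snRNP and hnRNP genes, the few NMD-only introns called in MYCN+/SNRPD3- against wildtype were all lower. Of 41 tested introns in 22 SR and SR-like genes, 3 passed, all lower, and at an unadjusted p under 0.05 9 were lower and 2 higher. Of 31 introns in 19 genes of snRNP and spliceosome components, 1 passed (lower) and 9 were lower and 1 higher at that level. Of 26 introns in 15 genes of hnRNP and related proteins, 1 passed (lower), with 3 lower and 1 higher. Over all introns tested, 0.559% passed, with 0.35% higher and 0.209% lower. At an unadjusted p under 0.05, 5.87% of them were higher and 5.08% lower. The list medians were -0.20, -0.26 and -0.10 log2 odds, against -0.00917 over all introns tested.

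SON, a large SR-like protein of nuclear speckles, and LUC7L3, a U1-associated SR-like protein, gave the 3 SR calls. The SON intron (chr21:33569088-33572550) was at 3.77%, 4.03% and 3.83% in wildtype and 1.36% to 2.92% in MYCN+/SNRPD3-, and MYCN+/SNRPD3+ was at 2.58% to 3.04%, overlapping the latter (-0.70 ± 0.12 log2 odds, SE, limma adjusted p = 0.0278). The introns before and after the LUC7L3 exon were at 1.64% to 2.79% and 2.05% to 3.52% in wildtype, and at 0.398% to 1.19% and 0.515% to 1.35% in MYCN+/SNRPD3- (adjusted p = 0.0377 and adjusted p = 0.0454 by limma). The call among snRNP genes was LSM14A, which the list took by its symbol and which is a protein of mRNP granules. The call among hnRNP-related genes was a new donor in TAF15, an RNA-binding protein of the FET family, at 51.4%, 66.5% and 56.9% in wildtype and 36.5% to 43.97% in MYCN+/SNRPD3- (-1.03 ± 0.18 log2 odds, SE, limma adjusted p = 0.0316). A second TAF15 intron, which skips 1 exon, was at 56.1%, 14.8% and 33.6% in wildtype and 66.3% to 79.0% in MYCN+/SNRPD3- (2.40 ± 0.51 log2 odds, SE, limma adjusted p = 0.0594).

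By MYCN over all siRNAs, SON and LUC7L3 were the 2 SR calls among 41 tested introns (both lower). LSM14A was the 1 call among 31 introns of the snRNP list (lower). Over all introns tested, 1.23% passed, with 0.547% lower. HNRNPA2B1, an RNA-binding protein of mRNA export and splicing, was the 1 call among 26 introns of the hnRNP list. Its new acceptor was at 2.79% to 4.18% without and 1.75% to 2.85% with MYCN (-0.45 ± 0.08 log2 odds, SE, limma adjusted p = 0.0214). HNRNPA2B1, SON and LUC7L3 were named after their values were seen.

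Other members of these lists did not pass. The poison exon of SRRM2, a scaffold of nuclear speckles, was flanked upstream by an intron at 17.9% to 20.3% in wildtype and 16.7% to 27.2% in MYCN+/SNRPD3- (0.38 ± 0.20 log2 odds, SE, limma adjusted p = 0.525). The kinase gene CLK1, known for an exon whose skipping is regulated by stress, had an exon-skipping intron at 14.04% to 20.3% in wildtype and 14.3% to 19.9% in MYCN+/SNRPD3- (limma adjusted p = 0.999). The PRPF39 intron, in a gene of the U1 snRNP, was at 29.0% to 34.3% and 8.25% to 26.8% (-1.30 ± 0.34 log2 odds, SE, limma adjusted p = 0.117). In ACIN1, a component of the junction-bound ASAP complex, the poison-exon intron was at 12.4% to 16.999% and 5.52% to 9.92% (limma adjusted p = 0.123). ZRSR2, TXNL4A, SART3, PSPC1, HNRNPUL1, TARDBP, U2AF1L4, SRSF8 and RBFOX2 had adjusted p-values from 0.367 (SART3) to 0.999 (ZRSR2), and RBFOX2 ranged from 0.821% to 98.2% in MYCN+/SNRPD3- #1 alone.

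RBM proteins and RNA helicases had 36 tested introns in 23 genes, of which 1 passed, and 6 were higher and 1 lower at an unadjusted p under 0.05. Over all introns tested, 0.559% passed, and 5.87% were higher and 5.08% lower at that unadjusted p. The call was RBM39, a U2AF-related splicing coactivator, at 12.1%, 18.98% and 16.4% in wildtype and 6.04% to 9.78% in MYCN+/SNRPD3- (-0.95 ± 0.19 log2 odds, SE, limma adjusted p = 0.0482). In the NMD pathway itself and the exon junction complex, 0 of 19 introns in 8 genes passed by limma, with 2 higher and 2 lower at an unadjusted p under 0.05. MAGOHB, of the exon junction core, had 2.79% to 4.61% against 1.33% to 2.93% (limma adjusted p = 0.315). DHX34, DCP2 and RUVBL2 had adjusted p-values of 0.959, 0.775 and 0.856.

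Ribosomal proteins and translation factors had 48 tested introns in 29 genes, with 2 higher and 0 lower calls, where 0.35% of all introns tested were called higher and 0.209% lower. At an unadjusted p under 0.05, 7 were higher and 5 lower. The calls were EIF3F, a subunit of an initiation factor, at 0.578% to 0.980% in wildtype and 1.40% to 2.25% in MYCN+/SNRPD3- (0.68 ± 0.14 log2 odds, SE, limma adjusted p = 0.046), and EEF2KMT, a methyltransferase of an elongation factor, at 0.0238% to 0.786% and 3.04% to 3.68% (1.62 ± 0.28 log2 odds, SE, limma adjusted p = 0.026). RPL22L1, a paralogue of a ribosomal protein, rose with MYCN over all siRNAs from 3.84% to 4.95% up to 5.50% to 6.85%, without overlap (0.38 ± 0.07 log2 odds, SE, limma adjusted p = 0.0192). These 3 were named after their values were seen.

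The other introns named by their level were in genes of helicases and translation. EIF4A2, an RNA helicase of initiation, had a new donor at 11.4% to 14.9% in wildtype and 14.3% to 16.4% in MYCN+/SNRPD3- (limma adjusted p = 0.604). RBMS2, DDX50, MRPS25 and EEF1AKMT2 had adjusted p-values from 0.698 to 0.973. PSI of EIF2AK2 spread widely within groups and ran from 0.488% to 26.2% in wildtype alone.

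Cell cycle genes held 117 tested introns in 58 genes, and 0 passed in MYCN+/SNRPD3- against wildtype by limma, with 17 higher and 10 lower at an unadjusted p under 0.05, against 5.87% and 5.08% of all introns tested. With MYCN over all siRNAs 1 of the 117 passed, where 1.23% of all introns tested did. It was a new donor of the kinesin gene KIF21A, which the list took by its symbol. This donor was at 23.3% to 46.5% without MYCN and 11.2% to 30.0% with it (-0.93 ± 0.17 log2 odds, SE, limma adjusted p = 0.0207). The ranges overlapped. CHEK1, the DNA damage checkpoint kinase gene, had a poison-exon intron at 37.7% to 44.96% in wildtype and 35.6% to 50.7% in MYCN+/SNRPD3- (limma adjusted p = 0.945). No annotated stop codon lay inside the CHEK1 exon of 130 bases. A new donor in CDK7, the kinase that activates other cyclin-dependent kinases, carried 69.8% to 79.7% in wildtype and 25.5% to 81.0% in MYCN+/SNRPD3- (limma adjusted p = 0.937). CCNT2 and CCNQ, both cyclin genes, had adjusted p-values of 0.286 and 0.342.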

How the data were processed

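RNA from 18 libraries (6 groups of 3, from the labels) was analysed. The labels do not say whether replicates came from separate cultures, although the study states that its experiments were repeated independently, so p-values measure the spread between these samples. The authors aligned reads to hg38 with STAR (version 2.5.0a per the labels), and leafcutter was run on the junctions. Values deposited by the authors are PSI as a fraction, adding up to 1 over the introns of each cluster, with none at exactly 0 or 1. Reads per intron were not used here, so depth is unknown and intervals for counting error were not computed. A second deposited table holds the authors' own comparisons (FDR per cluster and delta PSI per intron) and was not used. All 18 columns were mapped by library name and 0 columns were left out.

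Introns were matched to GENCODE release 44 for hg38 by their first and last base, while the methods name an earlier release, so membership can differ. Introns with a mean PSI of 0.01 to 0.99 were fitted with limma 3.58.1 in R 4.3.3 (lmFit and eBayes, all 6 groups in 1 fit, prior of 1.17 degrees of freedom, no block) after the offset of 0.01, and adjusted by Benjamini-Hochberg over all 152722 introns. The fit was tested on simulated data. Sums were compared by exact two-sided permutation over libraries, within MYCN status or siRNA for comparisons over both, in Python 3.11.15. All differences are the first group minus the second.

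Members, gene lists (by symbol, so some related genes enter) and tests were chosen with earlier results of these data known. Named were up to 10 called introns per comparison by smallest p (1 per gene), the 10 genes with the largest knockdown difference among introns without overlap in both statuses, and up to 5 genes per list by highest mean PSI with 18 different values. MYCN over all siRNAs, the kinds of event, inclusion shares and the comparator classes were added after the data were seen. Alternatives were other offsets, filters, transformations, moderation, single siRNAs, transcript support levels, a replicate block and leaving out each library. Replicate numbers showed no pairing in single introns, and a shared effect of them on the sums was not tested. Some named introns and sequences are not reported here.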

Additional observations from a re-analysis of the deposited data

How the results depend on the processing

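Alternatives for single introns were counted only for the introns named by smallest p among the calls. Of these alternatives, 476 kept direction and threshold, 43 lost the threshold and 0 changed direction. Other named introns are not in these counts. Of the alternatives for sums and counts, 421 kept both and 14 changed direction. Another 51 gained the threshold or a larger count, and 61 lost the threshold or had a smaller count. Causes of the changes below were not tested. Usage in MYCN+/SNRPD3- against wildtype was 0.271 with clusters of 18 different values and 0.295 with mean PSI under 0.5 (exact permutation p = 0.0238 and p = 0.0476), and the interaction was -0.0384 with transcript support level 1 or 2. Poison-exon usage with knockdown and MYCN expressed was -0.935 with mean PSI of 0.01 to 0.99 (exact permutation p = 0.0595). Against wildtype, MYCN+/SNRPD3- gave -0.714 with support level 1 or 2 and -0.114 as mean log2 odds (exact permutation p = 0.0238 and p = 0.0476). Exon-skipping usage with knockdown and MYCN repressed was 0.287 with 18 different values and 0.0883 as log2 odds (exact permutation p = 0.0357 and p = 0.0238). With MYCN expressed it was 0.583 with 18 different values, 0.631 with mean PSI under 0.5 and 0.218 as log2 odds, and against wildtype 0.937 with support level 1 or 2 (exact permutation p = 0.0595 each). Inclusion was -0.451 with a skipping intron in a coding transcript (MYCN repressed, exact permutation p = 0.0595) and -0.433 as a median over exons (MYCN+/SNRPD3- against wildtype, exact permutation p = 0.0357). With the libraries numbered 1 and 2 alone, added after the data were seen, usage changed with knockdown by -0.0933 (MYCN repressed), -0.105 (MYCN expressed) and -0.0990 (both), with an interaction of -0.0114. There, exact permutation p was 0.0667, the smallest possible, for poison-exon usage (-0.374 and -0.702) and inclusion (-0.492 and -0.915) in the 2 statuses, and for exon-skipping usage with MYCN expressed (0.388) and against wildtype (0.520).

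Replicate numbers showed no pairing in single introns: deviations of same-numbered libraries correlated at a mean of 0.00543 (-0.112 to 0.0870 over 45 pairs). A shared effect of replicate number on the sums was not tested, and replicate 3 had the highest exon-skipping usage in each knockdown group. With a replicate block, poison-exon usage with MYCN expressed kept its -0.702 at an exact permutation p = 0.0741, exon-skipping usage with MYCN repressed its 0.281 at an exact permutation p = 0.037, and calls were 2 for MYCN alone and 66 for MYCN+/SNRPD3- against wildtype.

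Calls for MYCN+/SNRPD3- against wildtype were 109 at an adjusted p of 0.1, 22 with an offset of 0.05, 13 on PSI itself, 16 with mean PSI of 0.05 to 0.95, 17 with trend and robust moderation, 13 with only the groups compared, 25 with siRNA #1 and 3 with siRNA #2. For MYCN over all siRNAs they were 150 at an adjusted p of 0.1, 29 on PSI itself, 32 with mean PSI of 0.05 to 0.95 and 42 with trend and robust moderation. For MYCN alone they were 2 at an adjusted p of 0.1, 1 with an offset of 0.001, 1 without a filter and 11 with only the groups compared. For knockdown with MYCN repressed they were 2 with only the groups compared, and with MYCN expressed 2 at an adjusted p of 0.1, 1 with an offset of 0.001, 1 without a filter, 4 with only the groups compared and 1 with siRNA #1. For knockdown over both statuses they were 3 at an adjusted p of 0.1, 1 with an offset of 0.001 and 1 without a filter, and for the interaction 1 without a filter.

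Leaving out each library in turn gave usage differences of -0.0312 to 0.0785 for knockdown with MYCN repressed, -0.0516 to 0.154 with MYCN expressed, -0.0126 to 0.0901 over both, -0.0781 to 0.127 for the interaction 0.153 to 0.359 for MYCN alone and 0.248 to 0.354 for MYCN+/SNRPD3- against wildtype. Poison-exon usage with MYCN expressed ranged from -0.865 to -0.516, and exon-skipping usage from 0.522 to 0.753 with MYCN expressed and from 0.714 to 0.945 against wildtype. Inclusion ranged from -0.713 to -0.331 with MYCN repressed and from -1.19 to -0.822 with MYCN expressed. Calls ranged from 3 to 45 for MYCN+/SNRPD3- against wildtype, 44 to 68 for MYCN over all siRNAs, 0 to 2 for knockdown over both statuses, and 0 to 1 for MYCN alone, for knockdown in either status and for the interaction. Reads per intron are unknown, so depth limits could not be set.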
